A study of Homo sapiens with 12 samples.

Results

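The triple combination of filanesib, pomalidomide and dexamethasone was compared with control treatment in the established myeloma line MM.1S, human cells that are sensitive to glucocorticoids. The comparison used 6 of the 12 arrays in the series, chosen by their group labels, namely 3 arrays of the triple combination (FPD) and 3 of the control. FPD cells had received 1 nM filanesib, 500 nM pomalidomide and 10 nM dexamethasone for 24 h, and control cells carry a vehicle label for treatment while their source label calls them untreated. Beside these stood 3 arrays of pomalidomide with dexamethasone at the same doses (PD) and 3 of the F group, 1 nM filanesib. The treatment label of the F group also names 10 nM dexamethasone, which its title does not, so the dexamethasone exposure of that group is uncertain. All groups were the same cell line at 24 h, and nothing in the labels says that replicate arrays were separate cultures. Any p-value therefore reflects how much these particular arrays differ, a spread that may be technical.

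Filanesib blocks the kinesin spindle protein encoded by KIF11, a motor that pushes the spindle poles apart, and cells without its activity stall in mitosis. Pomalidomide binds cereblon, the substrate receptor of a ubiquitin ligase, and redirects that ligase to the lymphoid transcription factors IKZF1 and IKZF3, whose loss in myeloma cells lowers IRF4 and then MYC. Dexamethasone activates the glucocorticoid receptor, which enters the nucleus and raises or lowers transcription of its target genes. These drugs are used in multiple myeloma, a cancer of antibody-secreting plasma cells.

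Values are log2 expression values made with the RMA procedure, a change is the difference of the group means on that scale, and errors of changes are standard errors from limma with 3 arrays per group. A gene is said to have risen or fallen where limma's Benjamini-Hochberg adjusted p over all genes was under 0.05. Of 53617 rows in the table, 16098 named exactly 1 gene, and 14884 genes were tested. The median of an array was 4.23 to 4.27. Across rows, replicate arrays correlated at r = 0.988 to 0.992, against 0.985 to 0.988 between FPD and control arrays. The number of arrays limits the precision of every value. A gene's level is set against its own level in other arrays and never against another gene's. Genes named below as risen or fallen against control were also tested with any 1 control or FPD array left out. Apart from SGK1, they passed that test in each such fit unless the value without the array is given. Counts of genes and of list members do not carry this and shrink with fewer arrays, from 1080 genes higher to as few as 746.

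After the triple combination 1080 genes were higher (7.26% of those tested) and 876 were lower (5.89%) than in control. Counts of list members below stand against these shares. Most changes were small. Of the genes that rose, 531 changed by a log2 of under 0.5, 452 by 0.5 to 1, and 97 at least 2-fold. Of those that fell, 491 changed by under 0.5, 349 by 0.5 to 1, and 36 at least 2-fold. The larger shifts thus lay mostly on the side of increase, with a median change over all genes of -0.02. Among the called genes, the 3 FPD arrays lay wholly apart from the 3 control arrays in 1064 that rose and 869 that fell. Choosing genes by their call favours such separation, and no count is given for genes that were not called. These counts are therefore no separate check of the calls. By class of locus, 1008 of 11916 protein-coding genes rose and 835 fell, while of 1072 microRNA loci 9 rose and 11 fell. The median control level was 5.86 in the protein-coding genes and 3.37 in the microRNA loci. The latter lies under the array medians, where values may be background.

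**Figure D1:**
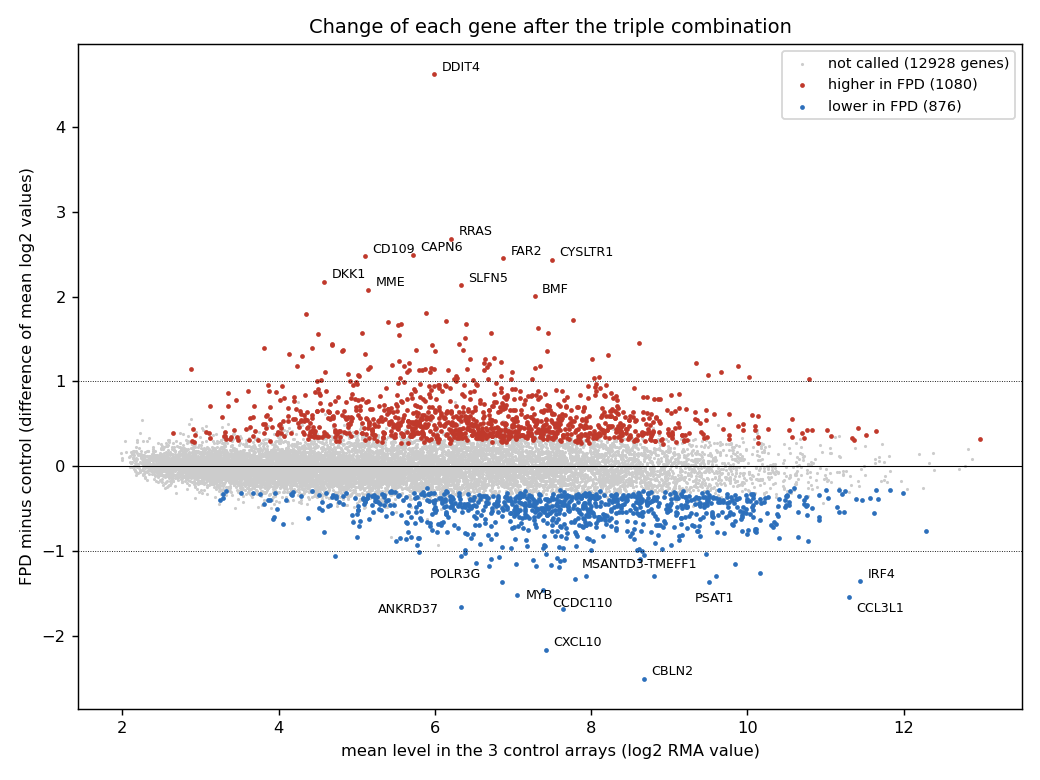
Difference of the mean log2 values of FPD and control (vertical axis) against the mean log2 value in the 3 control arrays (horizontal axis), 1 point per gene, 14884 genes. Red points are the 1080 genes called higher and blue points the 876 called lower, dotted lines mark a 2-fold change, and the 10 protein-coding genes farthest in each direction are named, with DDIT4 alone above a difference of 4.

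The stress-response gene DDIT4, whose product restrains the growth kinase complex mTORC1, showed the highest increase by a wide margin. It read 5.90, 6.06 and 6.02 in the control arrays and 10.62, 10.59 and 10.62 in the FPD arrays, a rise of 4.62 ± 0.09 (SE) or 24.6-fold (limma adjusted p = 5.04e-15). Its 3 FPD values differed from one another by less than 0.1, and none came near the control values. The small GTPase gene RRAS read 6.29, 6.43 and 5.91 in the control arrays and 8.84, 9.07 and 8.76 in the FPD arrays (6.41-fold, limma adjusted p = 7.26e-09). CAPN6, which encodes a calpain family member without protease activity, read 5.75, 5.80 and 5.60 in the control arrays and 8.21, 8.28 and 8.14 in the FPD arrays (5.63-fold, limma adjusted p = 3.34e-09). In both genes the lowest FPD array lay more than 2 units above the highest control array.

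Several of the next genes encode surface or secreted proteins or their partners. DKK1, a secreted inhibitor of Wnt signalling that myeloma cells can release into bone, read 4.60, 4.49 and 4.66 in the control arrays and 6.52, 6.80 and 6.94 in the FPD arrays (4.5-fold, limma adjusted p = 5.77e-08). MME, the membrane endopeptidase also known as CD10, read 5.05, 5.29 and 5.11 in the control arrays and 7.16, 7.23 and 7.28 in the FPD arrays (4.22-fold). The leukotriene receptor gene CYSLTR1 read 7.45, 7.71 and 7.35 in the control arrays and 9.90, 10.20 and 9.70 in the FPD arrays (5.4-fold). All 3 genes lay apart from control, as their choice required, and the FPD arrays of CYSLTR1 were spread over 0.5 units. ALOX5AP, which encodes an activator of leukotriene synthesis, rose as well, from 6.82, 6.92 and 6.40 in control to 8.27, 8.39 and 8.19 in FPD (2.96-fold). The Wnt receptor gene FZD4 read 5.18, 5.03 and 4.98 in the control arrays and 6.34, 6.84 and 6.71 in the FPD arrays (2.96-fold), and the collagen-binding membrane protein gene ANTXR1 read 5.94, 5.89 and 5.82 in the control arrays and 7.84, 7.39 and 7.83 in the FPD arrays (3.49-fold). The surface glycoprotein gene CD109 rose by 2.47 ± 0.13 on the row that stood for it, while its other row changed by 0.24, so its size rests on 1 of 2 rows.

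Among genes of signalling and death that rose, BMF, a BH3-only activator of apoptosis, read 7.23, 7.13 and 7.47 in the control arrays and 9.26, 9.46 and 9.11 in the FPD arrays (4.01-fold, limma adjusted p = 3.92e-08). A second row of BMF rose by 0.92, less than the first but in the same direction. MAP3K5, the stress kinase ASK1, read 7.35, 7.30 and 7.31 in the control arrays and 8.99, 8.79 and 9.08 in the FPD arrays (3.1-fold). ZC3H12A, an endoribonuclease that cleaves inflammatory mRNAs, read 7.67, 7.85 and 7.79 in the control arrays and 9.55, 9.52 and 9.40 in the FPD arrays (3.3-fold). Each of the 3 FPD arrays was above each control array in these genes, as their choice required. GRB14, an adaptor that dampens insulin receptor signalling, rose 3.27-fold, and the cytoskeletal linker gene VCL, which encodes vinculin, rose 2.71-fold. IQGAP3, a scaffold protein linked to proliferation, read 6.29, 6.32 and 6.57 in the control arrays and 8.04, 7.96 and 8.21 in the FPD arrays (3.2-fold), and its values in the PD arrays lay between, at 7.67, 7.45 and 7.59.

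Metabolic and trafficking genes were also among the 30 highest. FAR2, a fatty acyl-CoA reductase, rose 5.47-fold, and AASS, the first enzyme of lysine breakdown, rose 2.97-fold. The calcium-dependent membrane-binding protein gene ANXA4 rose 2.85-fold from 6.51, 6.34 and 6.29 to 7.80, 7.85 and 8.04. The remaining protein-coding genes of that group were EPB41L4A (3.26-fold), PDGFRL (3.17-fold), CTTNBP2NL (2.94-fold), the guanylate-binding protein gene GBP4 (2.71-fold) and MILR1 (2.7-fold). The pseudogene CEP192P1 rose by 1.80 on 1 of its 3 rows, with 0.16 and -0.13 on the others, and its probes may share signal with related loci.

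CBLN2, which encodes a secreted synaptic organiser, fell the most. It read 8.41, 8.91 and 8.70 in the control arrays and 5.71, 6.39 and 6.42 in the FPD arrays, which was 5.66-fold lower (limma adjusted p = 6.63e-08). The T cell attracting chemokine gene CXCL10 read 7.39, 7.84 and 7.04 in the control arrays and 5.33, 4.91 and 5.54 in the FPD arrays (4.48-fold lower, limma adjusted p = 1.42e-05). Both genes varied more between arrays of a group than most. No FPD array reached a control value, as the choice of these genes required. The chemokine genes CCL3 and CCL3L1 encode near-identical proteins that attract osteoclast precursors and leukocytes, and their probes may share signal. CCL3 read 8.88, 8.83 and 8.72 in the control arrays and 7.68, 7.47 and 7.40 in the FPD arrays (2.44-fold lower) and CCL3L1 read 11.35, 11.45 and 11.12 in the control arrays and 9.83, 9.73 and 9.74 in the FPD arrays (2.91-fold lower).

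Some transcription factors of blood cells fell as well, 7 of 31 in the myeloma list with 3 higher. These are shares of 22.6% lower and 9.68% higher, against 5.89% and 7.26% of all genes. The list had a median change of -0.025, and fewer members fell without some single arrays, as given below. IRF4, on which myeloma cells depend for survival, read 11.39, 11.50 and 11.44 in the control arrays and 10.06, 10.13 and 10.08 in the FPD arrays (2.56-fold lower, limma adjusted p = 6.63e-08). MYB, a regulator of progenitor growth, read 6.96, 7.11 and 7.07 in the control arrays and 5.47, 5.57 and 5.56 in the FPD arrays (2.87-fold lower), and ETS1 read 7.44, 7.67 and 7.66 in the control arrays and 6.40, 6.21 and 6.58 in the FPD arrays (2.28-fold lower). The spread within either group was under 0.5 in these genes, against falls of more than 1. MYC, the growth regulator, read 10.61, 10.70 and 10.65 in the control arrays and 9.89, 9.74 and 9.82 in the FPD arrays, a fall of 1.78-fold (limma adjusted p = 8.57e-06).

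Other deep decreases came from varied functions. ANKRD37, a target of hypoxia signalling, read 6.26, 6.48 and 6.28 in the control arrays and 4.64, 4.68 and 4.71 in the FPD arrays (3.16-fold lower). PSAT1, an enzyme of serine synthesis, read 9.59, 9.64 and 9.29 in the control arrays and 8.11, 8.27 and 8.04 in the FPD arrays (2.58-fold lower). The cyclin-dependent kinase adaptor gene CABLES1 read 9.59, 9.61 and 9.59 in the control arrays and 8.38, 8.16 and 8.37 in the FPD arrays (2.46-fold lower), and its second row fell by 1.09. SYCP3, a component of the meiotic synaptonemal complex that some cancer cells express, read 7.77, 8.16 and 7.85 in the control arrays and 6.54, 6.78 and 6.60 in the FPD arrays (2.44-fold lower). The cell surface genes ADAM23 (2.26-fold lower), IL17RB (2.2-fold), CD200R1 (2.11-fold) and VSIG1 (2.22-fold) fell too. So did the kinase gene STK38L (2.24-fold lower), the growth factor gene FGF9 (2.09-fold), the growth factor binding protein gene IGFBP3 (2.08-fold) and the transcription elongation factor gene EAF2 (2.05-fold). HSD11B2, which encodes an enzyme that inactivates cortisol, read 6.63, 6.40 and 6.15 in the control arrays and 5.47, 5.22 and 5.42 in the FPD arrays (2.03-fold lower). CCDC110, FJX1 and SSBP4 fell 2.75-fold, 2.14-fold and 2.09-fold. NAV1 fell by 1.11 on 1 row, with 0.07 on the other. LGALS17A is a galectin pseudogene and MSANTD3-TMEFF1 a read-through locus, and their falls of 3.2-fold and 2.51-fold may include signal of related genes.

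**Figure D2:**
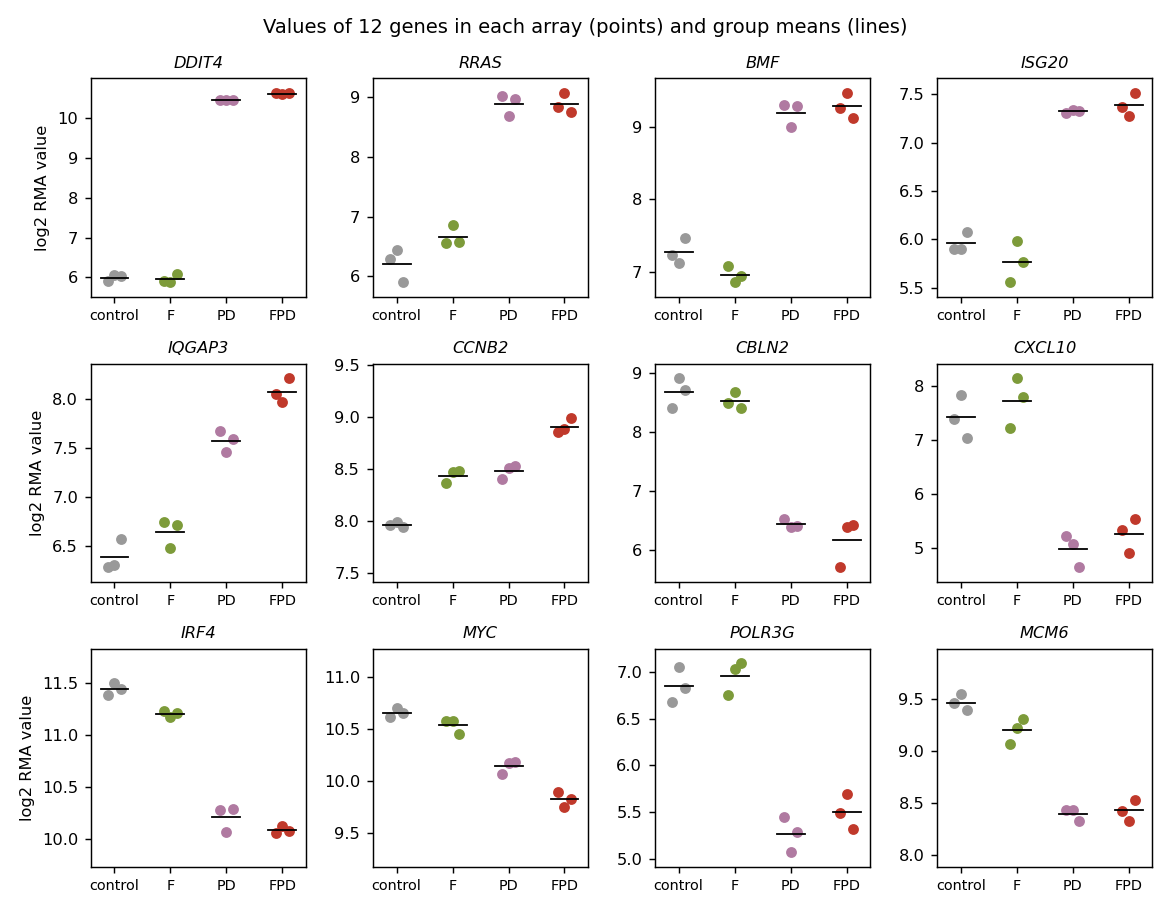
Log2 RMA values (vertical axis) of 12 genes in each of the 12 arrays (points) with group means (lines), for control, F, PD and FPD. The FPD points lie apart from the control points in every panel, IQGAP3, CCNB2 and MYC have PD values between control and FPD, and each vertical axis spans at least 2 log2 units.

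The plasma cell label was checked against markers. The plasma cell list held 10 measured members, of which 0 rose and 3 fell, against 7.26% and 5.89% of all genes. The syndecan gene SDC1, the plasma cell marker CD138, read 10.25, 10.15 and 10.17 in the control arrays and 10.24, 10.19 and 10.21 in the FPD arrays, and CD38 read 7.57, 7.74 and 7.66 in the control arrays and 7.74, 7.83 and 7.64 in the FPD arrays. The secretory regulator gene XBP1 read 10.78, 10.88 and 10.74 in the control arrays and 10.71, 10.67 and 10.81 in the FPD arrays, and none of these 3 markers passed the test. IRF4 and the surface antigen gene SLAMF7, which elotuzumab targets, fell, the latter from 10.58, 10.76 and 10.62 to 10.10, 10.18 and 10.06 (1.46-fold lower, limma adjusted p = 0.000399). The costimulatory receptor gene CD28 also fell, by 1.22-fold, but lost its call in each of the 6 fits that left out 1 array, with an adjusted p of up to 0.17.

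Of 34 measured markers of T, NK, myeloid, B, stromal and epithelial cells, 2 rose and 1 fell. These shares of 5.88% and 2.94% were below the 7.26% and 5.89% of all genes. None of 8 measured T cell markers and none of 8 stromal and epithelial markers passed the test. Among the T cell markers were CD4 (4.82 in control and 4.57 in FPD on average), CD7 (6.34 and 6.24) and LCK (4.95 and 4.89). TRAT1, which averaged 9.34 in control and 9.42 in FPD, read well above the array medians in both groups. Of 8 myeloid markers CD68 rose, reading 8.61, 8.61 and 8.62 in the control arrays and 10.00, 10.18 and 10.05 in the FPD arrays (2.75-fold, limma adjusted p = 5.46e-08). CD68 encodes a lysosomal membrane protein, and the defining myeloid markers CSF1R (4.64 in control and 4.48 in FPD on average), CD163 (3.33 and 3.40) and MPO (4.48 and 4.22) did not rise with it. NCAM1, an adhesion molecule of NK cells that myeloma cells can also carry, rose from 5.16, 5.57 and 5.32 to 6.09, 6.02 and 5.92 (1.58-fold). CR2, a complement receptor of B cells, fell from 6.87, 7.09 and 6.95 to 6.05, 5.84 and 6.14 (1.95-fold).

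The targets of filanesib and pomalidomide changed little as transcripts. The glucocorticoid receptor gene, the target of dexamethasone, was not analysed here. KIF11 read 10.20, 10.25 and 10.18 in the control arrays and 10.34, 10.30 and 10.51 in the FPD arrays, a change of 0.17 ± 0.10 that did not pass the test (limma adjusted p = 0.312). The cereblon gene CRBN read 7.88, 7.84 and 7.82 in the control arrays and 8.05, 8.25 and 8.18 in the FPD arrays, a change of 0.32 ± 0.09 (limma adjusted p = 0.0341), and the call was lost without control replicate 1, 2 or 3 or FPD replicate 2 or 3, at an adjusted p of up to 0.136. IKZF1 read 8.28, 8.37 and 8.52 in the control arrays and 8.84, 8.68 and 8.74 in the FPD arrays, a change of 0.37 ± 0.10 (limma adjusted p = 0.0192). That call was lost without control replicate 1 or 2 or FPD replicate 1 or 3, at an adjusted p of up to 0.0912. IKZF3 averaged 4.18 ± 0.17 in control and 4.26 ± 0.41 in FPD (mean and SD) (limma adjusted p = 0.871), close to the array medians. Pomalidomide acts on the IKZF1 and IKZF3 proteins, which these arrays do not measure. Of 18 measured members of the ligase, its regulators and substrates, 4 rose and 1 fell, against 7.26% and 5.89% of all genes. Their median change was -0.04. ZNF692, a zinc finger substrate, rose from 7.99, 8.05 and 7.91 to 8.41, 8.35 and 8.35 (1.31-fold, limma adjusted p = 0.00874).

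Part of the known glucocorticoid targets rose. Of 28 measured targets 10 rose and 1 fell, a share of 35.7% higher against 7.26% of all genes, with a median change of 0.18. FKBP5, a co-chaperone that limits glucocorticoid receptor activity, read 5.54, 5.60 and 5.56 in the control arrays and 7.28, 7.20 and 7.26 in the FPD arrays (3.21-fold, limma adjusted p = 2.33e-07). PIK3IP1, an inhibitor of PI3 kinase, read 5.41, 5.78 and 5.43 in the control arrays and 6.83, 7.37 and 7.05 in the FPD arrays (2.91-fold). KLF9, a transcription factor the receptor induces, read 4.85, 4.90 and 4.70 in the control arrays and 6.25, 5.95 and 6.35 in the FPD arrays (2.58-fold). The FPD arrays of these genes lay more than 1 log2 unit above the control arrays. TXNIP, which restrains glucose uptake, rose from 9.13, 9.53 and 9.36 to 10.50, 10.68 and 10.50 (2.33-fold). SMAP2, a regulator of vesicle traffic, and the chemokine receptor gene CXCR4 rose 2.16-fold and 2.07-fold, and the clock gene PER1 rose 1.65-fold.

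SGK1 was the 1 target that fell, from 6.45 in control to 6.06 in FPD on average. Its call with 1 array left out is not reported here. Other targets of the receptor did not pass the test. The phosphatase gene DUSP1 changed by 0.18 ± 0.11 (limma adjusted p = 0.384), ZBTB16 by 0.38 ± 0.15 (limma adjusted p = 0.126) and the metallothionein gene MT2A by -0.39 ± 0.15 (limma adjusted p = 0.108). The letters ACANNNTGT, which abbreviate the receptor's binding element, were found in the promoters of 2 of 25 of these targets (8%) and in 3.67% of all 10749 promoters. A promoter here is the stretch from 250 bases before to 50 after a gene's start in RefSeq (GRCh38.p14), searched on both strands, and a match describes letters and not binding.

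Part of the genes of mitosis rose. Across 5 lists with 115 measured members, 28 rose and 6 fell, against 7.26% and 5.89% of all genes, and the median change was 0.17. With 1 array left out, 20 to 28 rose and 2 to 6 fell. The mitotic cyclin gene CCNB2 read 7.96, 7.99 and 7.94 in the control arrays and 8.85, 8.88 and 8.99 in the FPD arrays (1.93-fold, limma adjusted p = 1.95e-06). NEK2, a kinase that separates centrosomes, read 7.86, 7.88 and 7.70 in the control arrays and 8.47, 8.58 and 8.48 in the FPD arrays (1.62-fold), and CDC20, the activator of the anaphase-promoting complex, read 9.51, 9.55 and 9.36 in the control arrays and 10.09, 10.23 and 10.07 in the FPD arrays (1.58-fold). The groups did not overlap in these 3 genes. CCNB1, the other main mitotic cyclin, read 8.55, 8.57 and 8.35 in the control arrays and 8.97, 9.07 and 9.07 in the FPD arrays (1.46-fold, limma adjusted p = 0.0035). In a bulk sample a larger share of cells at one stage of the cycle and more RNA per cell cannot be told apart.

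Many genes of this kind are known to share a promoter signature, the cell cycle homology region (CHR, letters TTTGAA) with CCAAT boxes beside it. The promoters of CCNB2 and CDC20, which rose most in their lists, are shown for this reason, 5′ to 3′ along the gene from RefSeq (GRCh38.p14), with CHR and CCAAT letters on either strand in capitals (CCNB2 at chr15:59104896-59105195, plus strand and CDC20 at chr1:43358731-43359030, plus strand):
CCNB2: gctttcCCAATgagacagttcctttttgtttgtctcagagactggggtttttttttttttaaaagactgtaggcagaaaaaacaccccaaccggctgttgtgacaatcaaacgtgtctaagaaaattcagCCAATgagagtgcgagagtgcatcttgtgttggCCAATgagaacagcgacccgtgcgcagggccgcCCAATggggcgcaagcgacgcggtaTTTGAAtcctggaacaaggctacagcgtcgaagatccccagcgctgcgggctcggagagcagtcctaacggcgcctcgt
CDC20: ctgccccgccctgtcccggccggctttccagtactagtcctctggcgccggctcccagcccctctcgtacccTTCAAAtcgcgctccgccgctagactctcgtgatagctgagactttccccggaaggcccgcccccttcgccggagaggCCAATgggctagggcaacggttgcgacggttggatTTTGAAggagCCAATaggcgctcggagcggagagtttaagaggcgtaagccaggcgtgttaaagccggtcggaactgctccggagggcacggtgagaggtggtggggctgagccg
CCNB2 holds 4 CCAAT boxes and 1 CHR in this window, and CDC20 holds 2 of each. The letters TTTGAA were found in 47 of 99 promoters of the mitosis lists (47.5%), in 16 of the 25 that rose (64%), and in 11.8% of all promoters. CCAAT letters were found in 60.6% of the mitosis promoters, 76% of those that rose and 36% of all.

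Within mitosis the groups of genes differed. Of 15 measured mitotic kinesins, the motors of spindle and chromosome movement, 7 rose and 0 fell (median 0.31). Without FPD replicate 3 the 7 became 4. KIF4A, which compacts chromosome arms and the central spindle, rose from 8.17, 8.20 and 8.30 to 8.86, 8.64 and 8.95 (1.5-fold), and KIF18A, which damps chromosome oscillation, rose 1.45-fold. Of 22 spindle, centrosome and cytokinesis genes 7 rose and 0 fell (median 0.25). CEP55, which completes abscission, rose from 8.48, 8.42 and 8.38 to 9.01, 8.95 and 9.08 (1.5-fold), HMMR rose 1.49-fold and PRC1, which bundles the central spindle, rose 1.45-fold.

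Of 26 mitotic cyclins, kinases and their regulators 7 rose and 2 fell (median 0.21). The phosphatase gene CDC25C, which activates CDK1 at mitotic entry, rose 1.47-fold. The related CDC25A, which acts at the start of S phase, moved the other way, from 8.69, 8.74 and 8.48 to 8.03, 7.75 and 7.85 (1.69-fold lower, limma adjusted p = 0.000231). The kinase genes CDK1 (change 0.14 ± 0.12, limma adjusted p = 0.571) and PLK1 (0.35 ± 0.11, limma adjusted p = 0.0538) stayed short of the threshold.

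Kinetochore and checkpoint genes, which attach chromosomes to the spindle, split, with 4 of 27 higher, 3 lower and a median of 0.06. KNL1, the platform on which the checkpoint assembles, rose from 8.29, 8.35 and 8.40 to 8.91, 8.84 and 9.16 (1.54-fold), and the centromeric histone gene CENPA rose 1.29-fold. Of 25 genes of the anaphase-promoting complex and chromatid separation, 3 rose and 1 fell (median 0.04). Besides CDC20, the topoisomerase gene TOP2A, which untangles sister chromatids, rose from 10.55, 10.52 and 10.63 to 11.11, 11.08 and 11.20 (1.47-fold).

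The mean of the mitosis members in each array, relative to the control average, was 0.13, 0.13 and 0.17 in the FPD arrays, -0.09, -0.13 and -0.14 in the PD arrays, 0.13, 0.20 and 0.23 in the F arrays and -0.02, 0.05 and -0.03 in the control arrays. FPD arrays were above PD and control arrays, and PD arrays were below control arrays. Of the 115 members 110 were higher on average in FPD than in PD, including all 27 kinetochore and all 22 spindle genes, but none passed the test of that difference by itself. As log2 changes against the shared control arrays, CCNB2 showed 0.95 in FPD, 0.52 in PD and 0.47 in F, and NEK2 showed 0.69, 0.21 and 0.55. CDC20 showed 0.66, 0.29 and 0.40.

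**Figure D3:**
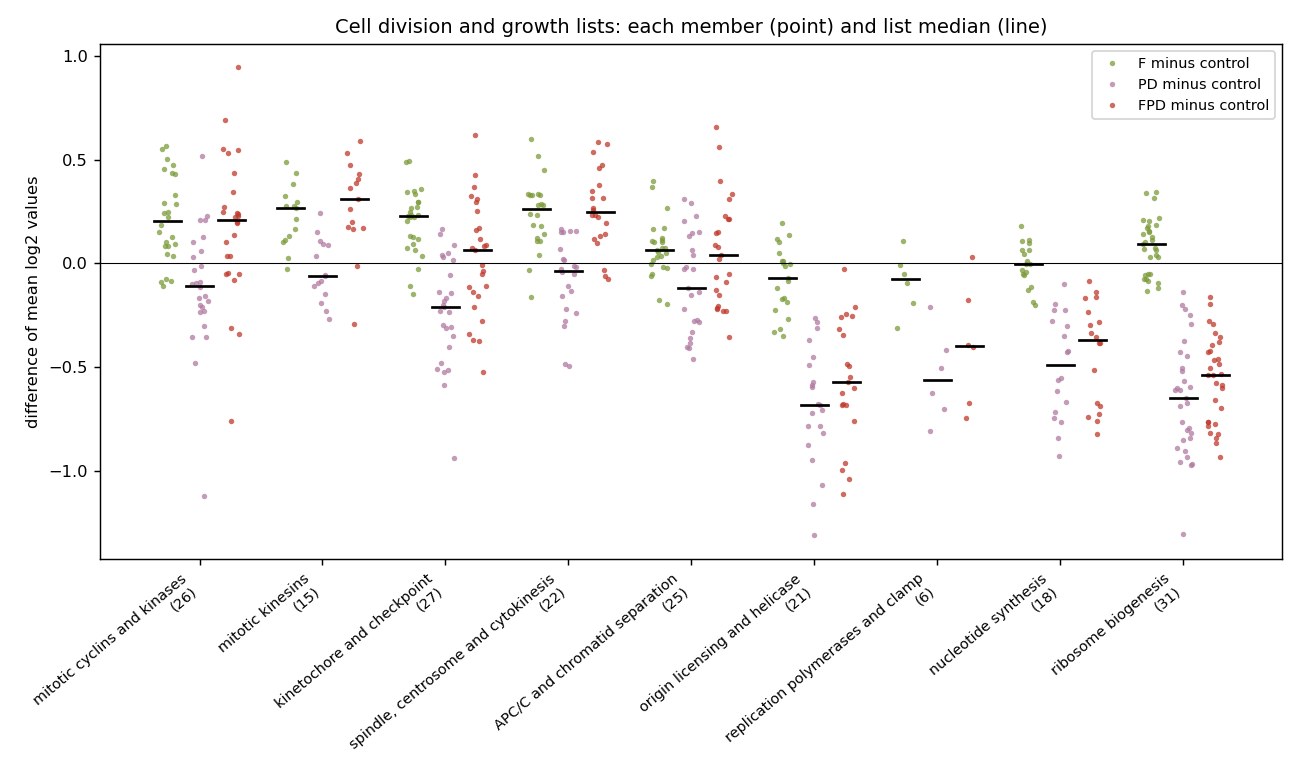
Difference of mean log2 values from control (vertical axis) of each member of 9 lists (points) and the list medians (lines) for F, PD and FPD, with the number of measured members in brackets. All 3 differences use the same 3 control arrays. FPD medians of the mitosis lists lie at or above 0, and those of the replication and ribosome biogenesis lists lie near -0.4 to -0.6.

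Most measured genes of DNA replication fell. Over the 3 lists of origin licensing, polymerase and clamp, and nucleotide supply, 30 of 45 measured members fell and 0 rose (median -0.49). Of all genes 5.89% fell and 7.26% rose, and 24 to 29 of the members fell when 1 array was left out. The array means of these members were -0.01, 0.04 and -0.04 in control, -0.09, -0.02 and -0.04 in F, -0.60, -0.56 and -0.62 in PD and -0.49, -0.54 and -0.44 in FPD. No FPD array overlapped the control range.

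Origin licensing and the replicative helicase, which open DNA once per cycle, had 15 of 21 members lower (median -0.57). The helicase subunit gene MCM6 read 9.46, 9.55 and 9.39 in the control arrays and 8.43, 8.33 and 8.53 in the FPD arrays (2.05-fold lower, limma adjusted p = 2.27e-06). CDC6, which loads the helicase, read 8.69, 8.87 and 8.37 in the control arrays and 7.65, 7.67 and 7.63 in the FPD arrays (2-fold lower), and TIPIN, which stabilises stalled forks, read 7.57, 7.83 and 7.41 in the control arrays and 6.54, 6.42 and 6.53 in the FPD arrays (2.16-fold lower). The groups were fully separate in all 3. The other measured helicase subunits MCM2, MCM3, MCM4, MCM5 and MCM7 fell 1.6-fold, 1.6-fold, 1.69-fold, 1.52-fold and 1.54-fold, and GINS2, a helicase cofactor, fell 1.95-fold.

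Of 6 measured members of the polymerase and clamp list 4 fell, and none of the 6 is a DNA polymerase gene. The sliding clamp gene PCNA fell from 10.09, 10.04 and 9.91 to 9.23, 9.34 and 9.22 (1.68-fold), and UHRF1, which helps copy DNA methylation, fell 1.59-fold. Nucleotide synthesis had 11 of 18 members lower (median -0.37). The pyrimidine enzyme gene DHODH fell from 8.22, 8.24 and 8.02 to 7.40, 7.30 and 7.31 (1.77-fold), the purine enzyme gene PPAT fell 1.69-fold and the CTP synthase gene CTPS1 fell 1.67-fold. The ribonucleotide reductase gene RRM2 changed by -0.17 ± 0.08 and did not pass the test (limma adjusted p = 0.212).

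The switch from G1 to S phase depends on E2F factors, and E2F1 itself read 8.77, 8.71 and 8.55 in the control arrays and 7.70, 7.47 and 7.72 in the FPD arrays (2.07-fold lower, limma adjusted p = 1.96e-05). Of 21 measured genes of G1 control 9 fell and 2 rose (median -0.27). The G1/S cyclin genes CCNE2 and CCNE1 fell 1.79-fold and 1.71-fold, from 6.32, 6.68 and 6.38 to 5.37, 5.63 and 5.85 and from 8.83, 8.88 and 8.59 to 7.98, 7.95 and 8.05. The D-type cyclin gene CCND1 fell 1.63-fold, and its kinase CDK4 fell 1.44-fold. CCND3, the third D-type cyclin, changed by 0.31 ± 0.11 (limma adjusted p = 0.0722). Homologous recombination and Fanconi genes had 1 of 17 higher and 1 lower. EXO1, an end-resecting nuclease, fell 1.34-fold.

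E2F binding letters were searched as TTTCGCGC, TTTGGCGC and TTCCCGCC on both strands, with overlapping matches joined. They were found in 17 of 39 replication promoters (43.6%), in 12 of the 28 that fell (42.9%), and in 5.69% of all promoters. The promoters of E2F1 and MCM6 are shown as the members that fell most in the G1 list and among helicase subunits, with those letters in capitals (E2F1 at chr20:33686336-33686635, minus strand and MCM6 at chr2:135876394-135876693, minus strand, RefSeq, GRCh38.p14):
E2F1: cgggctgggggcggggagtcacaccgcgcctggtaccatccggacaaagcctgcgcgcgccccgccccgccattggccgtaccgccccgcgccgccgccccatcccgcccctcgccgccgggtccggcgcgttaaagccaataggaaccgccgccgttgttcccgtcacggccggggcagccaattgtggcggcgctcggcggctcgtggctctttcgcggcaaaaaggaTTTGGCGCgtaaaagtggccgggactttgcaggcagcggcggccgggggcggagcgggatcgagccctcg
MCM6: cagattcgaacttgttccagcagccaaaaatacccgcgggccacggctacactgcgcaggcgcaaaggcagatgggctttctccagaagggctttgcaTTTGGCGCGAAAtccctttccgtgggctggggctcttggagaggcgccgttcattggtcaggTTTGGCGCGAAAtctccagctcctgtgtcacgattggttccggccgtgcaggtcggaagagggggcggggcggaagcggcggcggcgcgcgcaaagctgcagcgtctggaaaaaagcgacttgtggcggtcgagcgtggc
In MCM6 each of the 2 capital runs joins 2 overlapping matches on opposite strands.

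Ribosome production was the list with the largest share of falls. Of 31 measured genes of ribosome biogenesis 26 fell and 0 rose, a share of 83.9% lower against 5.89% of all genes (median -0.54). LYAR, a nucleolar growth regulator, read 7.44, 7.58 and 7.19 in the control arrays and 6.41, 6.39 and 6.61 in the FPD arrays (1.91-fold lower, limma adjusted p = 6.62e-05). The RNA helicase gene DDX21, which couples transcription to rRNA processing, read 10.35, 10.50 and 10.38 in the control arrays and 9.65, 9.44 and 9.62 in the FPD arrays (1.79-fold lower). BYSL, needed for the small subunit, read 7.85, 7.83 and 7.80 in the control arrays and 7.08, 6.89 and 7.03 in the FPD arrays (1.77-fold lower). The groups did not overlap in any of the 3. RRP12, MRTO4, NOP2, URB2, NOLC1 and NOP16 fell between 1.7-fold and 1.82-fold, and NCL, which encodes the abundant nucleolar protein nucleolin, fell 1.38-fold.

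MYC and related factors bind the E box CACGTG, which was found in 11 of 25 promoters of this list (44%), in 15.5% of the promoters of all genes that fell and in 9.02% of all promoters. The promoter of BYSL is shown as the member with the deepest fall among those with the letters and an entry, in capitals at the E box (chr6:41921249-41921548, plus strand, RefSeq, GRCh38.p14):
BYSL: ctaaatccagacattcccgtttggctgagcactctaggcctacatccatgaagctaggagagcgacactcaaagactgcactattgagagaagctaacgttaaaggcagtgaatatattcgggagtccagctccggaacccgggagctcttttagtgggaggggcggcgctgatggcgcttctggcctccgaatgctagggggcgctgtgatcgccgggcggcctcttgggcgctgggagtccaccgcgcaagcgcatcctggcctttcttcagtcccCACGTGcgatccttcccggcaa
In BYSL the single match lies after the start site, within the first 50 bases of the gene.

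RNA polymerase III, which makes transfer RNA and 5S ribosomal RNA, showed a change between 2 alternative subunits. POLR3G read 6.68, 7.06 and 6.83 in the control arrays and 5.49, 5.69 and 5.32 in the FPD arrays (2.56-fold lower, limma adjusted p = 5.18e-06), while its paralog POLR3GL read 5.83, 5.72 and 5.78 in the control arrays and 6.42, 6.48 and 6.55 in the FPD arrays (1.64-fold higher, limma adjusted p = 0.000177). Of 6 measured genes of this polymerase 3 fell and 1 rose. The snaR noncoding RNAs, small transcripts of this polymerase from near-identical copies, had 4 of 8 tested loci lower and 0 higher, with a median change of -0.66. SNAR-D averaged 7.29 ± 0.41 in control and 6.12 ± 0.19 in FPD (mean and SD) (2.25-fold lower, limma adjusted p = 0.00114), and SNAR-H read 7.24, 6.39 and 6.53 in the control arrays and 5.62, 5.48 and 5.78 in the FPD arrays (2.13-fold lower). Probes for these copies can share signal, so the loci are not separate observations.

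Structural ribosomal protein genes changed little beside the factors that assemble ribosomes. Of 46 measured cytoplasmic ribosomal protein genes 3 fell and 0 rose (median -0.02), near the background of 5.89%, with RPL32 lowest (-0.60 ± 0.10). Of 72 mitochondrial ribosomal protein genes 12 fell and 0 rose (median -0.16), led by MRPL17 (1.47-fold lower). The 12 falls became 4 to 6 without control replicate 1 or 2 or FPD replicate 1, 2 or 3. Of 18 genes of transfer RNA synthetases 8 fell and 0 rose (median -0.29), led by the tyrosine enzyme YARS1, from 7.87, 7.93 and 7.91 to 7.31, 7.17 and 7.36 (1.54-fold lower), and the methionine enzyme MARS1 (1.41-fold lower). Without FPD replicate 2 the 8 falls became 5. Of 12 translation initiation genes 1 fell and 0 rose.

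Genes of biosynthetic metabolism fell in part, in several branches. Of 11 measured genes of serine and one-carbon metabolism 5 fell and 0 rose (median -0.34). After PSAT1, the glycine-cleaving enzyme gene GLDC fell 1.71-fold, the mitochondrial folate enzyme gene MTHFD1L fell 1.66-fold and PHGDH, the first step of serine synthesis, fell from 7.21, 7.24 and 7.03 to 6.66, 6.56 and 6.46 (1.52-fold). The transcript of ATF4, a stress factor with targets in amino acid metabolism, changed by -0.14 ± 0.08 (limma adjusted p = 0.361). The ATF4 list had 2 of 11 members higher and 2 lower, with TRIB3, a pseudokinase, 1.45-fold lower.

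The cholesterol list had 6 of 17 measured members lower and 0 higher (median -0.18). SQLE, an early sterol enzyme, fell from 7.07, 7.12 and 6.86 to 6.24, 6.24 and 6.42 (1.64-fold), MSMO1 fell 1.58-fold and HMGCS1, an enzyme of the mevalonate pathway, fell 1.58-fold. Fatty acid synthesis was mixed, with 2 of 15 members higher and 3 lower. The fatty acid synthase gene FASN read 8.54, 8.41 and 8.80 in the control arrays and 7.84, 7.32 and 7.62 in the FPD arrays (1.99-fold lower, limma adjusted p = 9.51e-05), and the elongase gene ELOVL6 rose 1.32-fold.

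Of 19 genes of glycolysis and hypoxia 4 fell and 2 rose. The angiogenic factor gene VEGFA fell from 6.39, 6.67 and 6.49 to 5.90, 5.69 and 5.89 (1.61-fold), the hexokinase gene HK2 fell 1.47-fold and the lactate dehydrogenase gene LDHA fell 1.41-fold. In contrast, of 15 measured oxidative phosphorylation genes 1 fell and 0 rose (median -0.04). That list holds 75 genes, and those measured were all genes of cytochrome c reductase or oxidase.

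Protein folding genes fell in part. Of 13 measured chaperone genes 6 fell and 0 rose (median -0.30), among them HSPA4L (1.62-fold lower) and the mitochondrial chaperones TRAP1 (1.58-fold) and HSPA9 (1.46-fold). Of 18 genes of the endoplasmic reticulum 3 fell and 1 rose. SEL1L, the scaffold of a ligase that clears misfolded proteins, read 9.96, 10.04 and 9.99 in the control arrays and 9.14, 9.16 and 9.31 in the FPD arrays (1.73-fold lower, limma adjusted p = 1.9e-05). POMP, the only proteasome list member measured, changed by -0.16 ± 0.11 (limma adjusted p = 0.45). In the lysosome and autophagy list 5 of 29 members rose and 0 fell (median 0.12), led by the cathepsin genes CTSS, from 8.10, 8.21 and 7.88 to 8.73, 9.12 and 9.01 (1.85-fold), and CTSZ (1.69-fold).

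Genes that restrain growth signalling rose in part. Of 23 measured brakes on PI3 kinase, mTOR and glucose uptake 9 rose and 0 fell (median 0.23) against 7.26% and 5.89% of all genes, and 3 of the members that rose, DDIT4, PIK3IP1 and TXNIP, are also in the glucocorticoid list. Outside that overlap, KLHL24 rose from 6.97, 6.83 and 6.81 to 7.43, 7.74 and 7.62 (1.66-fold), and the sestrin gene SESN3, which restrains mTORC1, rose 1.47-fold. The circadian clock list had 2 of 13 members higher and 2 lower. The clock activator gene BMAL1 rose from 6.17, 6.24 and 6.01 to 6.74, 6.65 and 6.57 (1.43-fold) and the repressor gene PER2 fell from 7.80, 7.99 and 8.13 to 7.49, 7.41 and 7.47 (1.43-fold), opposite to PER1.

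Interferon-stimulated genes, which cells use against viruses and which IKZF1 and IKZF3 can repress in lymphoid cells, rose in part. Of 39 measured members 13 rose and 2 fell, a share of 33.3% higher against 7.26% of all genes (median 0.23). ISG20, among those that rose, is also in the glucocorticoid list and is counted there too. SLFN5 read 6.31, 6.17 and 6.53 in the control arrays and 8.42, 8.40 and 8.59 in the FPD arrays (4.39-fold, limma adjusted p = 6.63e-08). The exonuclease gene ISG20 read 5.90, 5.90 and 6.07 in the control arrays and 7.37, 7.28 and 7.51 in the FPD arrays (2.69-fold), and DTX3L, a ubiquitin ligase of the interferon response, read 6.49, 6.78 and 6.61 in the control arrays and 7.82, 7.92 and 7.79 in the FPD arrays (2.32-fold). IFIT3, an antiviral protein gene with control values under the array medians, read 3.61, 4.20 and 3.64 in the control arrays and 4.90, 5.44 and 5.27 in the FPD arrays (2.62-fold). The FPD arrays of these 4 genes lay above all control arrays.

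Other well known members of the program did not pass the test. IRF9, a subunit of the interferon-activated transcription factor, changed by 0.34 ± 0.16 (limma adjusted p = 0.208), and BST2, which tethers viruses to the cell surface, changed by 0.31 ± 0.11 (limma adjusted p = 0.0896). CXCL10 is also an interferon-stimulated gene and fell, as given above. Of 6 Schlafen family genes SLFN5 alone passed the test.

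The letters GAAANNGAA, part of the interferon-stimulated response element, were found in 21 of 31 promoters of this list (67.7%), in 7.46% of the promoters of all genes that rose and in 6.55% of all promoters. ISG20, the member with a promoter entry that rose most, is shown with these letters in capitals (chr15:88638766-88639065, plus strand, RefSeq, GRCh38.p14):
ISG20: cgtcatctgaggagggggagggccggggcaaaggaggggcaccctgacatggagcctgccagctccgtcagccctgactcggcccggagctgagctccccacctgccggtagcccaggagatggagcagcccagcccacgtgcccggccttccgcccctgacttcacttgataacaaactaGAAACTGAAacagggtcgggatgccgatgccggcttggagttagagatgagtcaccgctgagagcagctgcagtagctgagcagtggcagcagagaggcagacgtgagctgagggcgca
The match in ISG20 lies before the start site.

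Antigen presentation and chemokine genes changed singly. Of 10 measured presentation genes 1 rose and 1 fell, against 7.26% and 5.89% of all genes. The peptide-trimming enzyme gene ERAP2 averaged 8.04 ± 0.08 in control and 9.08 ± 0.07 in FPD (mean and SD) (2.06-fold, limma adjusted p = 1.42e-06), and MICB, a stress ligand seen by NK cells, read 9.79, 9.99 and 9.52 in the control arrays and 9.23, 9.17 and 9.19 in the FPD arrays (1.49-fold lower). Of 27 chemokine and receptor genes 2 rose and 3 fell (7.41% and 11.1%). CXCR4, which holds myeloma cells in bone marrow, read 10.11, 10.03 and 9.93 in the control arrays and 10.99, 11.10 and 11.12 in the FPD arrays (2.07-fold higher, limma adjusted p = 1.48e-06).

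Death regulators moved in both directions. Of 12 BH3-only and death effector genes 2 rose and 2 fell, against 7.26% and 5.89% of all genes. BMF rose most, and the 2 that fell are not named here. BCL2L11, which encodes the death activator BIM, changed by -0.14 ± 0.11 (limma adjusted p = 0.513), and BAX by -0.14 ± 0.09 (limma adjusted p = 0.366). Of 6 survival genes of the BCL2 family MCL1 rose, reading 9.29, 9.39 and 9.56 in the control arrays and 9.77, 9.85 and 9.82 in the FPD arrays (1.32-fold, limma adjusted p = 0.00663), while BCL2 changed by 0.12 ± 0.12 (limma adjusted p = 0.612). Of 7 measured members of the caspase, death receptor and IAP list 3 rose and 2 fell, and the 2 that fell are not named here. None of the 7 is a caspase or death receptor gene. CFLAR, which blocks caspase activation at death receptors, read 6.44, 6.47 and 7.07 in the control arrays and 7.74, 7.83 and 7.91 in the FPD arrays (2.24-fold, limma adjusted p = 2.45e-05), and BIRC2, an inhibitor of apoptosis, rose 1.45-fold.

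Of 14 measured p53 targets 2 rose and 2 fell (median 0.07), against 7.26% and 5.89% of all genes. TP53I3, an oxidoreductase gene, rose from 6.15, 5.88 and 6.11 to 6.85, 7.02 and 7.14 (1.94-fold), and the kinase gene PLK3 fell 1.46-fold. NF-kB targets had 4 of 19 higher and 5 lower (median -0.02). The subunit gene REL rose from 4.14, 4.42 and 4.47 to 4.79, 4.92 and 5.00 (1.47-fold), and PLEK, a signalling protein of blood cells, fell 1.59-fold.

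Among the 31 myeloma transcription factors, whose median change was -0.03, IRF4, MYB, ETS1 and MYC, given above, fell most. The 7 falls became 4 without control replicate 2 or FPD replicate 3. The MYC antagonist gene MXD4 averaged 6.06 ± 0.16 in control and 6.98 ± 0.10 in FPD (mean and SD) (1.9-fold higher, limma adjusted p = 3.54e-05), and KLF6 rose 1.57-fold. Among 18 surface antigens 3 rose and 3 fell. CD70, a costimulatory ligand, fell from 9.02, 9.07 and 8.84 to 8.38, 8.43 and 8.48 (1.46-fold).

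Signalling lists had few called members, and the share in the MAP kinase list was near that of all genes (7.26% higher and 5.89% lower). Of 28 MAP kinase and feedback genes 2 rose and 2 fell, with the phosphatase gene DUSP4 1.63-fold higher and DUSP7 1.76-fold lower. Of 24 JAK-STAT and PIM genes 3 rose and 2 fell. The kinase gene JAK2 rose from 5.59, 6.08 and 5.77 to 6.78, 6.68 and 6.91 (1.97-fold), the interferon gamma receptor gene IFNGR1 rose 1.9-fold and STAT3 rose 1.82-fold, while PIM1, a survival kinase, fell 1.61-fold.

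The Wnt and chromatin lists were also near the background. Of 34 Wnt regulators 3 rose and 2 fell. After DKK1 and FZD4, the ligase gene ZNRF3, which removes Wnt receptors, fell from 6.25, 6.32 and 6.31 to 5.59, 5.52 and 5.58 (1.65-fold). Of 21 adhesion genes 6 rose and 2 fell, and with vinculin the focal adhesion adaptor gene PXN rose 1.72-fold. The 6 rises became 2 to 4 when 1 array was left out. Of 59 chromatin modifiers 5 rose and 4 fell, with the remodelling subunit gene ARID1A 1.61-fold higher and the deacetylase gene HDAC6 1.48-fold higher. Of 6 measured genes of the tubulin list, folding cofactors and stathmin, 0 rose and 0 fell.

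**Figure D4:**
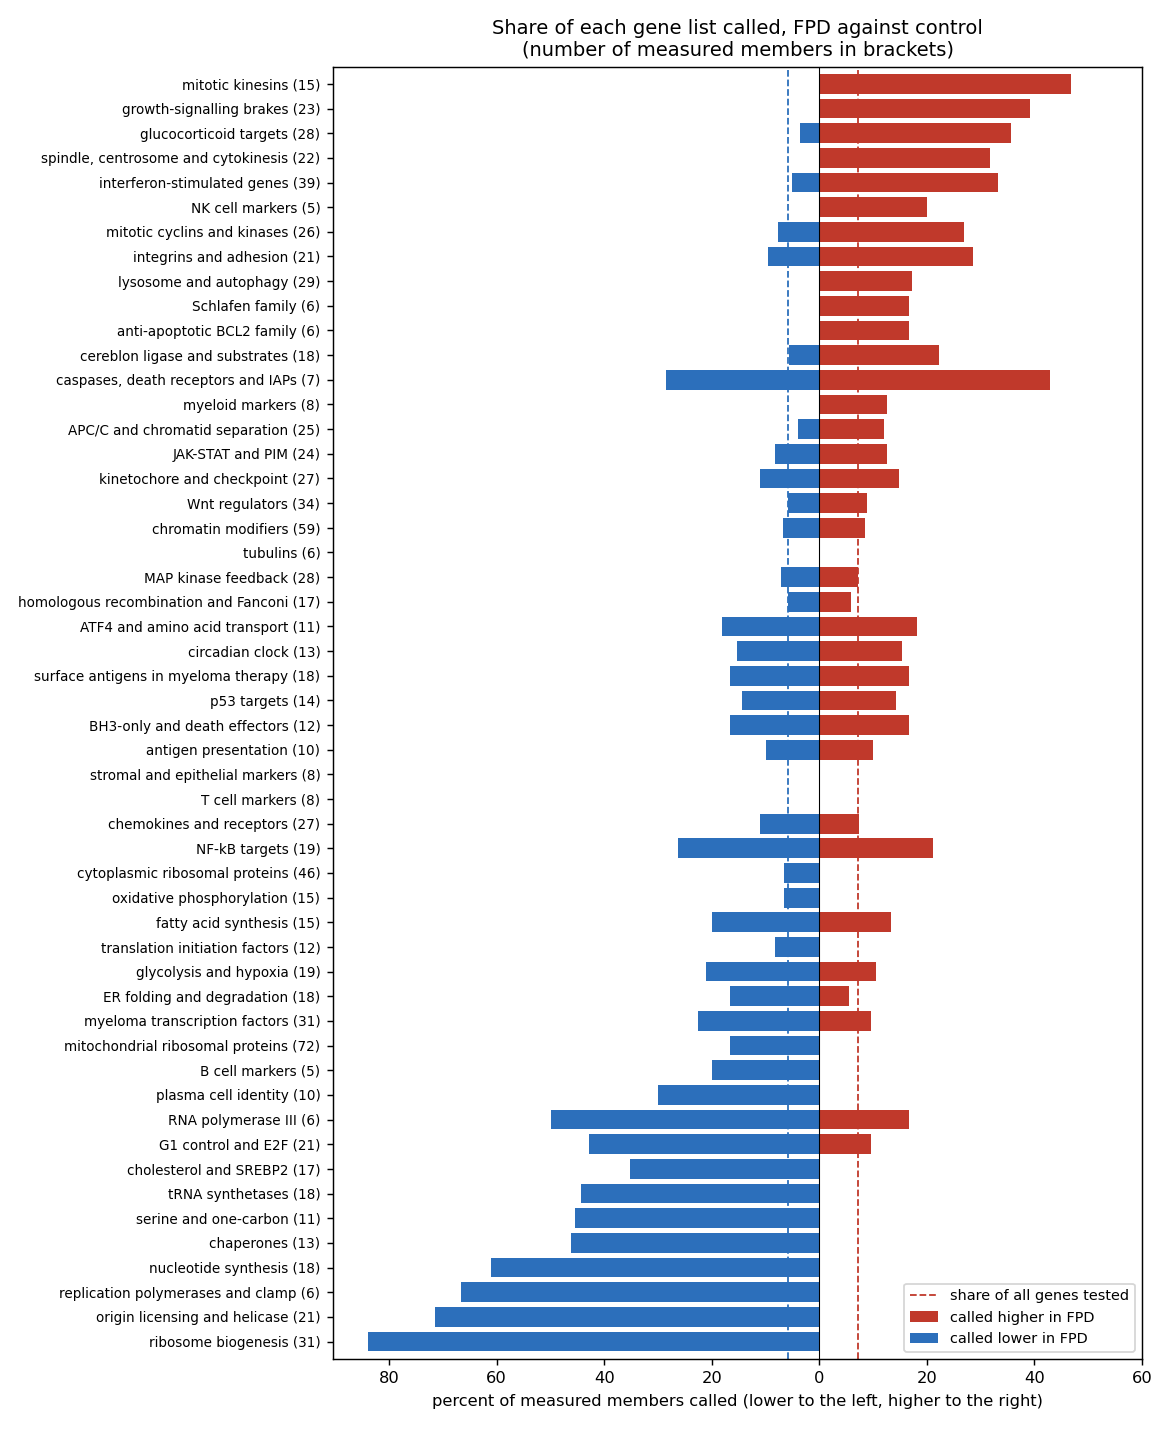
Percent of the measured members of each gene list called higher (red, to the right) or lower (blue, to the left) in FPD than in control, ordered by the difference, with the number of measured members in brackets. Dashed lines mark 7.26% higher and 5.89% lower over all 14884 genes, and mitotic kinesins and growth-signalling brakes stand at the top while ribosome biogenesis stands at the bottom. The proteasome list, with 1 measured member, and 1 list that is not reported here are left out.

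Few microRNA loci passed the test, and their array signal comes from the primary or precursor transcript and not from the mature microRNA. MIR142, a locus active across blood cells, read 8.21, 8.72 and 8.93 in the control arrays and 7.82, 7.34 and 7.41 in the FPD arrays (2.14-fold lower, limma adjusted p = 0.00128), and no FPD array reached a control value. Its 2 mature microRNAs are shown because it fell most of the microRNA loci (RefSeq, GRCh38.p14, chr17:58331283-58331303, minus strand for the 5p arm and chr17:58331245-58331267, minus strand for the 3p arm), with the seed, bases 2 to 8, in capitals:
hsa-miR-142-5p: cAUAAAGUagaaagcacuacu
hsa-miR-142-3p: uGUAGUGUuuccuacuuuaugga
The arms have different seeds.

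The triple combination was then set against its parts. Against PD, 5 genes were higher (0.0336% of those tested) and 0 lower (0.0%), while 745 and 538 had an unadjusted p under 0.05 in limma. Against F, 1117 were higher (7.5%) and 988 lower (6.64%). A test of whether FPD departed from the sum of the PD and F changes on the log2 scale called 0 genes either way, with 476 and 357 at an unadjusted p under 0.05 in limma. If the F arrays did receive dexamethasone, as their treatment label has it, that sum counts dexamethasone in both terms. The test is then not one of additivity of the drugs. Of 28 measured glucocorticoid targets 0 rose and 0 fell in F against control (median -0.03). In PD against control 12 rose and 1 fell (median 0.16). Whether the F arrays received dexamethasone was not tested.

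The 5 genes above PD were named after their values were seen. EBLN2, derived from an ancient bornavirus gene, read 4.83, 4.62 and 4.55 in PD and 5.81, 5.53 and 5.84 in FPD (2.08-fold, limma adjusted p = 0.022), with 5.12, 5.47 and 5.87 in F. PARPBP, an inhibitor of homologous recombination, read 6.70, 6.59 and 6.52 in PD and 7.21, 7.32 and 7.28 in FPD (1.58-fold, limma adjusted p = 0.0325), with 7.35, 7.55 and 7.36 in F. In both, the FPD arrays lay near the F arrays and apart from the PD arrays. MIR4521 was 1.76-fold, LOC100288637 1.65-fold and MIR4771-1 1.63-fold higher in FPD than in PD. MIR4521 averaged 8.88 in control, 7.85 in PD and 8.67 in FPD, so FPD was not above control. LOC100288637 rose against control by 0.68 on the row used and by 0.04 on its other row, and MIR4771-1 has 2 rows with equal values, under the array medians in PD. These calls were sensitive to single arrays, with 0 genes called with the replicate number as a block, on the mean of each gene's rows, or without PD replicate 2, PD replicate 3, FPD replicate 1 or FPD replicate 3.

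The sizes of the leading changes in the 3 treated groups can be set side by side. As log2 changes against the shared control arrays, DDIT4 showed 4.62 in FPD, 4.46 in PD and -0.03 in F, and BMF showed 2.00, 1.92 and -0.32. IRF4 showed -1.35, -1.23 and -0.24, and CXCL10 showed -2.16, -2.44 and 0.30. MYC showed -0.83, -0.52 and -0.12, and its difference between FPD and PD was -0.32 ± 0.09 (limma adjusted p = 0.251). IQGAP3 showed 1.68, 1.18 and 0.26, with 0.50 ± 0.11 between FPD and PD (limma adjusted p = 0.137). A p above the threshold does not show that FPD and PD were alike in these genes.

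Set against F, DDIT4 was 25-fold, CAPN6 6.13-fold and FAR2 5.97-fold higher in FPD than in F, and CXCL10 was 5.52-fold and CBLN2 5.08-fold lower. Of the 115 mitosis members 8 were higher and 14 lower in FPD than in F, with a median difference of -0.02, against 7.5% and 6.64% of all genes. CCNB2 was higher in FPD than in F by 0.47 ± 0.08 (limma adjusted p = 0.00112) and CDC20 differed by 0.26 ± 0.09, which did not pass the test (limma adjusted p = 0.0714).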

How the data were processed

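Gene expression in MM.1S cells was measured on 12 Affymetrix arrays, 3 per group, grouped by their labels. The deposited log2 values were computed by the authors with RMA in Affymetrix Expression Console, as the submitters' processing notes state. The procedure subtracts background, gives all arrays 1 distribution and summarises probes, so a change in total RNA per cell would not show and changes of weak genes are understated. Versions and genome build are not given in the sources used here. No detection calls were used, so a value at the level of an array's median may be background.

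Rows were named through the platform annotation, and all 14884 entrez identifiers matched RefSeq (GRCh38.p14). Of the 53617 rows, 37519 carried no symbol and entered no comparison of genes. In 779 genes with several rows, the row with the highest mean over all arrays stood for the gene, and no filter on level was applied. The model, 1 mean per group over the 12 arrays, was fitted in R 4.3.3 by limma 3.58.1 (functions lmFit and eBayes), which left 8 residual degrees of freedom, so the groups shared 1 estimate of spread. Tests were two-sided and p-values were adjusted by Benjamini and Hochberg over all genes. The method was checked on simulated data.

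The comparison, the 54 gene lists and the naming rule were chosen with earlier results of these data known. The result of 1 list is not reported here. The rule names the 30 highest and 30 lowest called changes whose groups do not overlap, outside small RNA and unnamed loci, 10 each way for F and PD, and from each list the 4 highest and 4 lowest, or all where it had up to 15 measured members. It also names genes fixed by name, of which 5 are not analysed here. Not every gene the rule names is described in the text. Those left out include the lowest members of the BH3-only and caspase lists. Other members were named after their values were seen. Promoters (250 bases before to 50 after the start, 10749 genes) were searched for fixed letters on both strands. Alternatives were the rows and arrays used, the normalization, the variance model, a filter, a replicate block and leaving out each array.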

Additional observations from a re-analysis of the deposited data

Results flagged for a closer look

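Among the 37519 rows of the table that name no gene, limma called 676 higher and 484 lower in FPD than in control (adjusted p over all rows under 0.05), or 1.8% and 1.29% of these rows. Of them 169 and 54 changed at least 2-fold, and the extremes were 2.80 and -1.87. These rows entered no comparison of genes, and the transcripts behind them were not analysed here.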

How the results depend on the processing

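With 3 arrays per group each value leans on single arrays. Leaving out 1 array gave 746 to 934 genes higher and 617 to 773 lower in FPD than in control, and 771 to 993 and 657 to 985 against F, with 657 lower without F replicate 2. Against PD it gave 0 to 11 higher and 0 to 4 lower. With p-values adjusted over all rows of the table, 716 were higher and 580 lower than in control, and 741 and 641 than in F. Against PD, the compared arrays alone gave 8 higher, arrays centred on their medians 11 higher and 1 lower, arrays quantile normalized again 1 lower, genes above the median mean 19 higher and 1 lower, the mean of a gene's rows 0 higher, and eBayes with trend and robust 28 higher and 3 lower. None of the 14 alternatives recomputed gene by gene called a gene in the opposite direction to that reported for FPD against control. The departure from additivity gave 0 calls in limma under each alternative run for it. A fit of the compared arrays alone is the reported fit for that test, since it uses all 4 groups. The test with all named rows kept gave 1100 higher and 896 lower than in control.

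The labels do not say what the replicate numbers in the titles mark, and deviations of same-numbered FPD and control arrays correlated at -0.04, 0.10 and 0.13, so the numbers were not taken as pairs. With the number as a replicate block 1051 genes were higher and 865 lower than in control, and 0 were higher than in PD.

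Leaving SGK1 aside, 172 genes named in the report were called against control. Of these, 167 kept that call under every alternative that tested them one gene at a time. With TRAT1 left aside, 2 of 2757 recomputed values of named genes against control changed sign, both of IKZF3. Leaving out 1 array gave IKZF3 values of -0.11 to 0.30, with -0.01 without control replicate 2. Values near the array medians may be background.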

Other observations

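Some noncoding loci outside the gene lists also changed, and those named here were chosen after their values were seen. Of 1398 long noncoding RNA genes 47 were higher and 20 lower in FPD than in control (limma). Both shares were below the 7.26% higher and 5.89% lower of all genes tested. The median control level of these RNA genes was 3.97, under the array medians, where values may be background. GAS6-DT, a transcript divergent from the growth factor gene GAS6, read 5.56, 5.88 and 5.85 in the control arrays and 6.90, 7.28 and 7.19 in the FPD arrays (2.58-fold, limma adjusted p = 1.24e-06). LITATS1 read 4.15, 4.18 and 4.57 in the control arrays and 5.61, 5.49 and 5.72 in the FPD arrays (2.47-fold, limma adjusted p = 1.42e-06). Both rose in all FPD arrays without overlap.

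The SNHG genes host small nucleolar RNAs, guides for ribosomal RNA modification, in their introns. Of 9 measured SNHG genes 0 rose and 3 fell, against 7.26% and 5.89% of all genes, and the median change was -0.30. SNHG15 read 6.46, 6.66 and 6.36 in the control arrays and 5.67, 5.72 and 5.72 in the FPD arrays (1.73-fold lower, limma adjusted p = 8.7e-05), and SNHG16 read 9.10, 9.30 and 9.07 in the control arrays and 8.63, 8.45 and 8.58 in the FPD arrays (1.52-fold lower, limma adjusted p = 0.00035). SNHG17 fell 1.55-fold (limma adjusted p = 0.000477).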
